A study of Mus musculus with 3 samples.

Results

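The cells described here were fibroblast-gated cells of pancreatic tumours that held transcripts of Wif1 or Gdf10, and there were 462 of them among 19302 cells that passed the quality filter (19576 barcodes in all). They were chosen on unique molecular identifier (UMI) counts: at least 500 genes and at most 20% mitochondrial UMIs, at least 1 UMI each of the fibroblast genes Dcn and Col3a1, no UMI of the epithelial gene Epcam, the pericyte gene Rgs5 or the mesothelial gene Upk3b, at most 1 UMI of Pi16 and Clec3b together, and at least 1 UMI of Wif1 and Gdf10 together. They are called Wif1/Gdf10 cells below, and the 2432 cells that passed the same gate with no UMI of Wif1 or Gdf10 are called other gated cells. Tumour 1 held 66 Wif1/Gdf10 cells, tumour 2 held 81 and tumour 3 held 315, so that tumour 3 supplied 68.2% of them.

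The study surveyed single-cell transcription in 3 tumours of the mouse strain KPf/fC, in which pancreatic Cre recombinase removes floxed Trp53. The sources used here do not give the promoter that drives Cre, or the age and sex of the mice. All 3 tumours had the same genotype and no treatment, and their cells had been sorted as negative for CD45, found on blood cells, CD31, found on endothelium, and PDGFRa, found on many fibroblasts, before 10x 3' v2 sequencing. The labels number the tumours without saying whether each came from its own mouse, so every p-value below measures the spread between these 3 tumours. Barcodes held a median of 8460.5, 9052 and 6025 UMIs in tumours 1, 2 and 3. Between 50 and 65 barcode sequences occurred in both tumours of a pair. Of the Wif1/Gdf10 cells, 5 had a barcode sequence that also occurred in another tumour, and no such sequence was shared by Wif1/Gdf10 cells of different tumours.

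Wif1 is a secreted protein that binds Wnt ligands and keeps them from their receptors. Gdf10, also called BMP3B, is a secreted member of the TGF-beta superfamily, Apod is a lipocalin that carries small lipophilic molecules, and Igf2 is an imprinted growth factor that is abundant in fetal mesenchyme. Fibroblasts of the pancreas include adventitial cells around vessels and ducts, for which Pi16 and Clec3b are marker genes, and cells within the lobules, and in tumours they can take on contractile or inflammatory programs.

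The Wif1/Gdf10 cells made up 9.82% of the gated cells with at most 1 Pi16 and Clec3b UMI in tumour 1 (66 of 672, exact 95% binomial interval 7.68 to 12.3%), 6.16% in tumour 2 (81 of 1314, 4.93 to 7.60%) and 34.7% in tumour 3 (315 of 908, 31.6 to 37.9%). Tumour 3 thus stood above the other tumours, and its interval did not overlap theirs. The mean was 16.9% ± 15.5 (SD, n = 3). With each cell thinned to 3000 UMIs and the gate applied again, the shares were 9.80%, 5.47% and 31.8%. A Wif1 or Gdf10 UMI was seen in 1.78%, 0.494% and 1.43% of cells that passed an epithelial gate (Epcam at least 1, Dcn and Col3a1 0), with median depths of 7450.5, 7620 and 6554 UMIs against 7138.5, 6263 and 4931 in the Wif1/Gdf10 cells. After thinning the epithelial shares were 0.705%, 0.303% and 0.606%, so the shares in gated cells lay above this background in each tumour. The intervals cover counting error only.

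In tumours 1 and 3, but not in tumour 2, most gated cells with Wif1 or Gdf10 were outside the rule, because they also held at least 2 Pi16 and Clec3b UMIs. Among gated cells with at least 2 Pi16 and Clec3b UMIs, 55.5% in tumour 1 (373 of 672, 51.7 to 59.3%), 28.2% in tumour 2 (35 of 124, 20.5 to 37.0%) and 69.3% in tumour 3 (591 of 853, 66.1 to 72.4%) had a Wif1 or Gdf10 UMI. In each tumour this share was above that of the cells with at most 1 Pi16 and Clec3b UMI. This order also held after thinning (46.5%, 22.5% and 63.8%). Wif1, Gdf10, Pi16 and Clec3b all belong to the rule, so these shares are descriptions without a test, and their intervals cover counting error only. The Wif1/Gdf10 cells were therefore 15%, 69.8% and 34.8% of all gated cells with either transcript in tumours 1, 2 and 3.

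**Figure D1:**
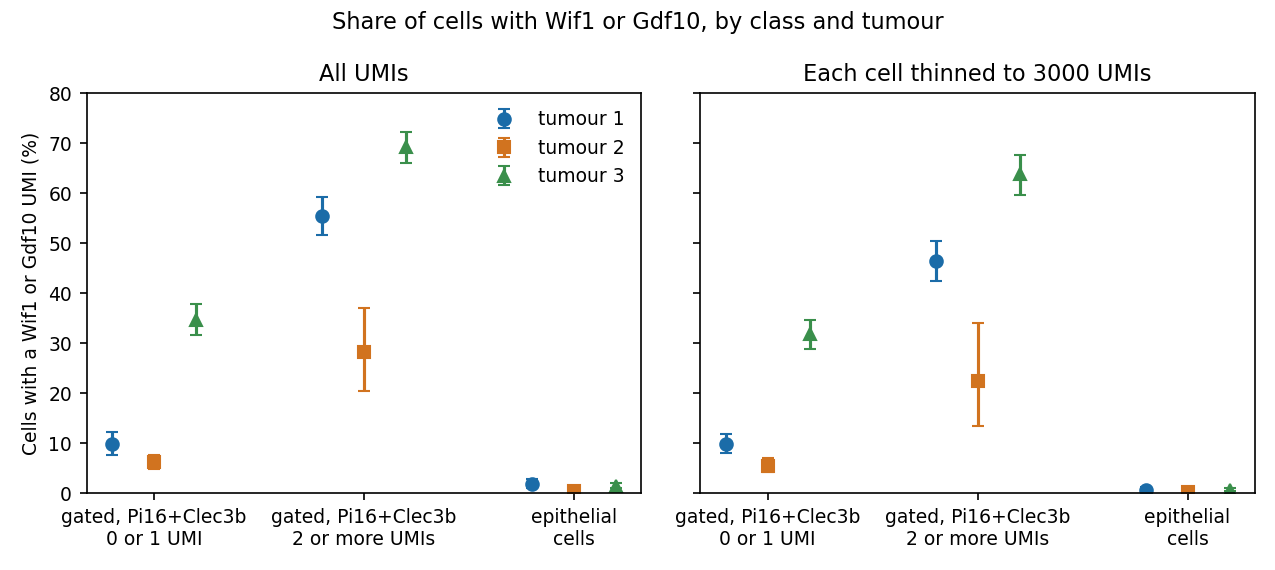
Percentage of cells with at least 1 Wif1 or Gdf10 UMI (y axis, linear from 0) in gated cells with 0 or 1 Pi16 and Clec3b UMI, gated cells with 2 or more, and epithelial cells, for tumours 1 to 3, before thinning (left) and after each cell was thinned to 3000 UMIs (right). Points are tumours and bars are exact 95% binomial intervals; the shares of 9.82%, 6.16% and 34.7% in the first class lie below the 55.5%, 28.2% and 69.3% of the second and above the epithelial background.

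Among the 462 Wif1/Gdf10 cells, 234 had Wif1 only, 139 had Gdf10 only and 89 had both. Just inside the rule, 170 cells (36.8%) had a single UMI of the pair, and the median was 2 UMIs. Wif1 and Gdf10 tended to occur together: Gdf10 was seen in 24.3%, 13.6% and 31.7% of the gated cells with Wif1 in tumours 1, 2 and 3, against 4.57%, 1.75% and 12.9% of those without Wif1. After thinning these shares were 23.3%, 6.25% and 23.5% against 5.42%, 1.22% and 9.40%. On the Pi16 and Clec3b side of the rule, 309 of the cells (66.9%) had no UMI of either gene, and the others had 1. Apod ran at 14.1, 170.3 and 660.1 counts per 1000000 UMIs (CPM, computed on the summed cells of a class in a tumour) in all Wif1/Gdf10 cells. By Pi16 and Clec3b UMIs in tumour 3, it was 402 CPM at none, 1089 CPM at 1, just inside the rule, and 1086 CPM at 2, just outside it. The other tumours did not share this order, with 18.2, 0 and 6.82 CPM in tumour 1 and 209, 0 and 0 CPM in tumour 2 at 0, 1 and 2 UMIs. By Wif1 and Gdf10 UMIs in tumour 3, it was 73.8 CPM at none, just outside, 294 CPM at 1, 149 CPM at 2, 517 CPM at 3 to 5 and 1587 CPM at 6 or more. No such order was seen in tumour 2, where Apod was 194 CPM at 1 UMI of the pair and 136 CPM at 6 or more. Single cells weighed heavily on these levels: 1 cell held 39 of the 65 Apod UMIs at 1 UMI of the pair in tumour 2, and 1 cell held 200 of the 660 at 6 or more in tumour 3.

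The 4 genes that name these cells did not mark them equally. Wif1 reached 303, 283 and 537 CPM and Gdf10 156, 71.6 and 205 CPM in tumours 1, 2 and 3, which the rule fixes. Apod was 14.1, 170.3 and 660.1 CPM in the Wif1/Gdf10 cells and 3.74, 9.42 and 73.8 CPM in the other gated cells. Only 115 Wif1/Gdf10 cells (24.9%) had an Apod UMI, and in tumour 1 only 4 of 66 did, so the name Apod rests on tumours 2 and 3. Igf2 was 46.5, 118 and 383 CPM against 5.69, 98.4 and 45.7 CPM, seen in 118 Wif1/Gdf10 cells (25.5%). The Igf2 levels of the other gated cells overlapped those of the Wif1/Gdf10 cells across tumours, and within tumour 2 the levels were close. Epithelial cells had Apod at 0.554, 1.42 and 3.32 CPM, in 0.494%, 1.23% and 2.33% of cells, and Igf2 at 1.44, 5.11 and 5.63 CPM, in 1.19%, 3.79% and 2.90% of cells. These 4 genes were part of the choice of cells and are given without a test.

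**Figure D2:**
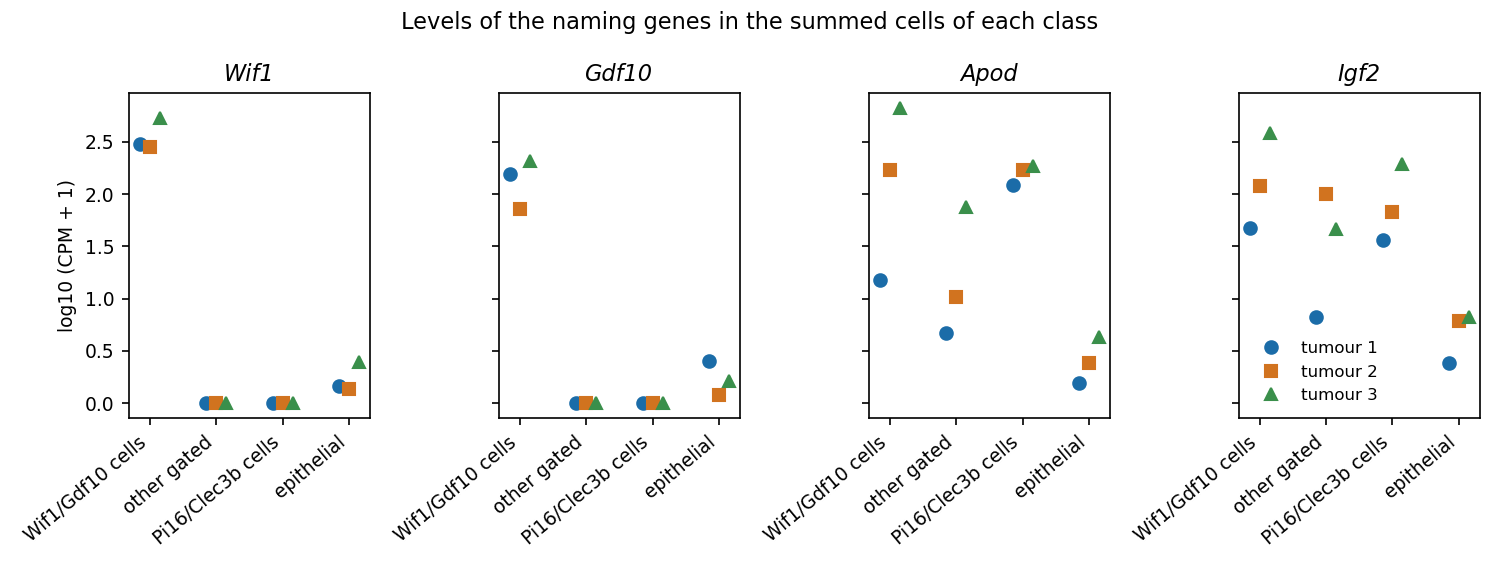
Levels of Wif1, Gdf10, Apod and Igf2 as log10 (CPM + 1) in the summed cells of each class (x axis), with 1 point per tumour. Wif1 and Gdf10 are at 0 in the other gated cells and the Pi16/Clec3b cells by the gate, and Apod in tumour 1 (14.1 CPM) lies far below tumours 2 and 3 in the Wif1/Gdf10 cells.

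The fibroblast markers fitted the gate. Of 10 fibroblast markers, 8 (Dcn, Col3a1, Col1a1, Col1a2, Lum, Pdgfra, Pdgfrb and Thy1) were each seen in at least 20% of the Wif1/Gdf10 cells of every tumour, Dcn and Col3a1 by the gate itself. Pdgfra, the receptor gene whose surface protein the sort had selected against, was seen in 50.0%, 40.7% and 38.7% of the Wif1/Gdf10 cells, at 121, 84.3 and 108 CPM. In epithelial cells it was seen in 0.889%, 1.81% and 0.939%, at 0.998, 2.46 and 1.30 CPM. The blood cell gene Ptprc had 1 UMI in all the Wif1/Gdf10 cells together. Of 8 Schwann cell markers, 3 (Sox10, Foxd3 and Cdh19) had none, while Ncam1 was seen in at least 20% of the cells of every tumour. The 8 summed to 244, 196 and 168 CPM in tumours 1, 2 and 3, against 296, 171 and 299.8 CPM in the other gated cells and 61.1, 66.6 and 85.4 CPM in epithelial cells.

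Compared with the other gated cells, the Wif1/Gdf10 cells carried more of 4 imprinted genes, of 3 secreted inhibitors of Wnt signalling and of the Hedgehog receptor Ptch1, and less of Cxcl13, Slpi, Sprr1a, Hmga2 and 4 digestive enzyme genes. The enzyme genes were too low in tumour 2 to be compared there. Cell counts were summed per tumour, at 495010 to 1640712 UMIs for the Wif1/Gdf10 cells and 3565890 to 13907864 for the other gated cells. Of 10418 genes tested, 274 (2.63%) passed an adjusted p of 0.05 (edgeR's quasi-likelihood test with the tumour as a block, Benjamini-Hochberg adjustment), 146 higher (1.40%) and 128 lower (1.23%). The median log2 fold change of all genes was -0.03. Without tumour 1 the count was 13, of which 12 were among the 274, without tumour 2 it was 518 and without tumour 3 it was 672. H19, Peg3, Plagl1, Rgs7bp, Fgl2 and G0s2 among the higher genes, and Cxcl13, Sprr1a and Hmga2 among the lower ones, still passed without tumour 1. They were 9 of the 56 genes chosen for naming that could be tested there.

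Imprinted genes are expressed from 1 parental allele, and many of them regulate fetal growth. Of 12 imprinted growth genes tested, Igf2 not counted, 4 were higher (33.3%, against 1.40% of all genes), none was lower, and their median log2 fold change was 1.06. This list and those below were drawn up with earlier results of these data known, and the imprinted Igf2 is among the genes that name the cells. The shares given for the lists are therefore descriptions. H19, a maternally expressed long noncoding RNA and the neighbour of Igf2, was at 545, 575 and 1046 CPM in the Wif1/Gdf10 cells of tumours 1, 2 and 3 and at 72.0, 88.1 and 112 CPM in the other gated cells. The classes did not overlap, and the log2 fold change was 2.90 ± 0.18 (SE; adjusted p = 0.000653). H19 was seen in 33.3%, 39.5% and 56.8% of Wif1/Gdf10 cells and 1.88%, 4.86% and 3.27% of epithelial cells, so its level came from a part of the cells. Peg3, a paternally expressed zinc finger protein, stood at 113, 54.1 and 192 CPM against 30.4, 11.6 and 37.0 CPM (2.13 ± 0.19, adjusted p = 0.0022). Plagl1, an imprinted zinc finger transcription factor, was at 36.4, 23.9 and 201 CPM against 15.3, 5.18 and 23.6 CPM (2.29 ± 0.35), and Zim1, the zinc finger gene next to Peg3, at 40.4, 14.3 and 39.6 CPM against 1.79, 0.503 and 7.29 CPM (3.52 ± 0.48). For Peg3, Plagl1 and Zim1 the classes did not overlap either, and tumour 2 had the lowest Wif1/Gdf10 level of each. Zim1 would not have met the filter on low counts without the Wif1/Gdf10 sums, where it was high. The growth inhibitors Grb10 (0.76 ± 0.17, adjusted p = 0.0535) and Cdkn1c (1.12 ± 0.27, adjusted p = 0.0682) did not pass, nor did Mest (1.96 ± 0.62), Ndn (0.60 ± 0.21) or the noncoding RNA Meg3 (-0.13 ± 0.34).

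**Figure D3:**
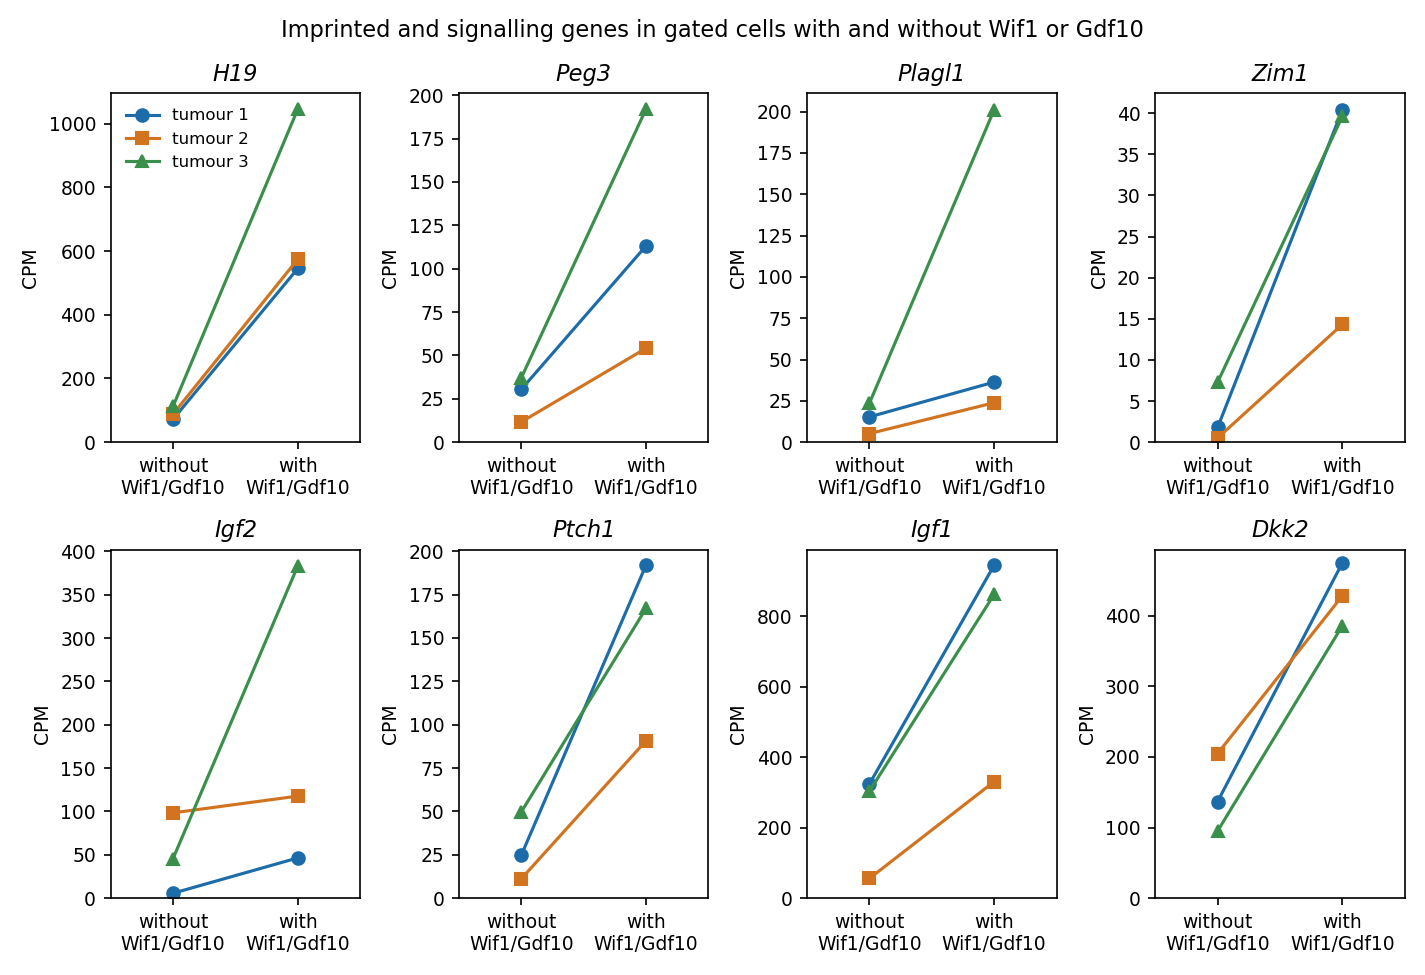
Levels in CPM (y axes from 0) of 8 genes in the summed gated cells without and with a Wif1 or Gdf10 UMI, with 1 line per tumour. All lines go up from left to right; that of Igf2, which is among the genes that name the cells, goes up by little in tumour 2 (98.4 to 118 CPM).

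Secreted Wnt inhibitors act on the ligand (Wif1 itself and the Sfrp family) or on the co-receptor (the Dkk family). Of 10 such genes tested besides Wif1, 3 were higher (30.0%, against 1.40% of all genes), none was lower, and the median log2 fold change was 1.13. Dkk2 was at 475, 428 and 386 CPM against 137, 205 and 95.1 CPM (1.58 ± 0.21, adjusted p = 0.00857), with no overlap between the classes. Sfrp5 was at 26.3, 11.1 and 14 CPM against 3.58, 0.503 and 1.96 CPM (3.19 ± 0.47). It met the filter on low counts only through the Wif1/Gdf10 sums, so it could enter the test, and the 30.0%, only as a higher gene. Igfbp4, which binds insulin-like growth factors and can also block Wnt co-receptors, was at 2691, 1729.9 and 4085 CPM against 1246, 580.2 and 1691 CPM (1.27 ± 0.16). Sfrp1, an abundant inhibitor in this class, was at 1422, 422 and 1434 CPM against 1006, 241 and 1433 CPM and did not pass (adjusted p = 0.381). None of 10 Wnt target and feedback genes passed, and their median was -0.44. Axin2, a widely used Wnt target, was at 18.2, 27.1 and 29.9 CPM against 19.5, 9.78 and 28.6 CPM (0.40 ± 0.32, adjusted p = 0.647).

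Among growth factor and Hedgehog genes, Igf1, which signals through the same receptor as Igf2, was at 945, 331 and 862 CPM against 324, 55.9 and 304 CPM (1.81 ± 0.22, adjusted p = 0.00509). Tumour 2 had the lowest Igf1 in both classes. With Igfbp4, it was 1 of 2 higher genes of the 10 of the insulin-like growth factor axis that were tested besides Igf2 (20%, against 1.40% of all genes). Ptch1, the receptor and a transcriptional target of Hedgehog signalling, was at 192, 90.7 and 167 CPM against 24.7, 11.1 and 49.6 CPM, without overlap (2.49 ± 0.26, adjusted p = 0.00306). It was the only Hedgehog gene of 10 tested to pass (10.0%). Gli1, another target, was at 22.2, 17.5 and 15.2 CPM against 6.66, 1.94 and 9.82 CPM (1.63 ± 0.47, adjusted p = 0.132). Of 27 BMP and TGF-beta genes, Bmp4 was higher (1.34 ± 0.26) and Id1, a BMP target, was lower (-1.67 ± 0.24), which is 3.70% in each direction against 1.40% and 1.23% of all genes.

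Among genes with a mean of at least 20 CPM and the same sign in every tumour, those with the largest increases had varied roles. Inmt, an enzyme that methylates indoleamines, was at 24.2, 98.7 and 25.6 CPM against 5.53, 1.73 and 3.08 CPM (3.86 ± 0.63, adjusted p = 0.0173), highest in tumour 2. Epha4, an ephrin receptor, was at 86.9, 49.3 and 83.5 CPM against 12.4, 2.66 and 16 CPM (2.99 ± 0.32). Rgs7bp, which anchors regulators of G protein signalling, was at 16.2, 27.1 and 76.8 CPM against 4.39, 2.09 and 11.5 CPM (2.78 ± 0.33). None of these overlapped between the classes. Kng2 (2.67 ± 0.26) encodes a kininogen and has a close paralogue in Kng1, so reads may be split between them. The other large increases were in the fibrinogen-like Fgl2 (2.66 ± 0.23), the Tie2 ligand Angpt4 (2.64 ± 0.30), the dipeptidase Dpep1 (2.54 ± 0.26), the tachykinin Tac2 (2.50 ± 0.40) and the lipolysis inhibitor G0s2 (2.37 ± 0.17). Inmt, Epha4, Rgs7bp and Tac2 would not have met the filter on low counts without the Wif1/Gdf10 sums, where they were high. G0s2 was even across tumours, at 222, 283 and 174 CPM against 36.6, 47.4 and 41.2 CPM. It is also in the neutrophil marker list, whose receptor genes Csf3r and Cxcr2 had no UMI in the Wif1/Gdf10 cells.

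Matrix and surface genes showed a few changes. Of 25 fibrillar matrix genes, 3 were higher (12%, against 1.40% of all genes): the collagen VI chains Col6a1 (0.96 ± 0.17) and Col6a2 (0.96 ± 0.17), and the proteoglycan Vcan (0.69 ± 0.15). Lama2, a laminin chain of basement membranes, was at 70.7, 58.9 and 113 CPM against 9.59, 8.56 and 41.5 CPM (2.22 ± 0.29). The small proteoglycans Prelp (1.48 ± 0.27) and Lum (1.19 ± 0.20) were higher, as were the procollagen protease Adamts2 (1.55 ± 0.17), the collagen-degrading Ctsk (1.35 ± 0.25) and Mmp2 (0.80 ± 0.17), while the protease inhibitor Timp1 was lower (-0.87 ± 0.18). Cd59a, which blocks the complement membrane attack complex, was at 311, 272 and 274 CPM against 75.4, 35.5 and 112 CPM (2.03 ± 0.27). Of 18 myofibroblast genes, 1 passed (5.56%, against 2.63% of all genes in either direction): Col10a1 was lower (-1.87 ± 0.30). Acta2, the smooth muscle actin of myofibroblasts, was at 1855, 495 and 469.9 CPM against 1710.0, 677 and 916 CPM (adjusted p = 0.343).

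Of 20 inflammatory fibroblast genes, 1 was higher (5.0%, against 1.40% of all genes) and 3 were lower (15%, against 1.23%). Ccl11, the eotaxin that attracts eosinophils, was at 303, 358 and 484 CPM against 79.6, 43.6 and 136 CPM, without overlap (2.21 ± 0.23, adjusted p = 0.00319). The chemokines Ccl2 (-1.32 ± 0.27) and Cxcl12 (-0.94 ± 0.17) and the alarmin Il33 (-0.90 ± 0.17) were lower. Of 26 mesenchymal transcription factors, 4 were higher (15.4%), among them Osr2 (1.65 ± 0.23) and Nr2f2 (1.09 ± 0.15), and 2 were lower (7.69%), Osr1 (-2.70 ± 0.47) and Sox9 (-1.38 ± 0.26). Nr2f2, the nuclear receptor COUP-TFII, was at 158, 151 and 176 CPM against 73.1, 69.9 and 77.1 CPM and so varied little between tumours.

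Under the same limits of level and sign, the largest decreases were in Cxcl13, a chemokine for B cells, at 0, 0 and 13.4 CPM against 456, 3.67 and 522 CPM (-5.82 ± 0.45, adjusted p = 0.00129), and Slpi, a secreted protease inhibitor, at 42.4, 54.1 and 36.0 CPM against 797, 138 and 1344 CPM (-3.80 ± 0.62, adjusted p = 0.0173). The cornified envelope gene Sprr1a was at 6.06, 6.37 and 2.44 CPM against 86.2, 70.6 and 27.8 CPM (-3.63 ± 0.28). Lgals7 (-2.62 ± 0.50), a galectin of stratified epithelia, the neuropeptide Npy (-2.81 ± 0.47) and the caveolar protein Cav1 (-2.62 ± 0.30) were lower too. The chromatin protein Hmga2 was at 6.06, 107 and 5.49 CPM against 89.2, 529 and 26.4 CPM (-2.61 ± 0.26), and tumour 2 was the highest in both classes. The mitotic gene Ube2c was lower (-2.78 ± 0.46). It was the only one of 20 S phase and G2/M genes to pass (5.0%, against 1.23% of all genes lower), although each of the 20 had a fold change below 0. Of 12 MHC genes, only the class II chain H2-Aa passed (8.33%, against 1.23% of all genes) and was lower (-3.87 ± 0.83, adjusted p = 0.0482). It was at 0, 6.37 and 1.22 CPM against 55.3, 4.46 and 42.1 CPM, with the opposite order in tumour 2. Cxcl13, Sprr1a, Cav1, Ube2c and H2-Aa would not have met the filter on low counts without the sums of the other gated cells.

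Several digestive enzyme genes of acinar cells were among the lower genes: Cela3b (-3.44 ± 0.36), Clps (-3.04 ± 0.30), Prss2 (-2.97 ± 0.28; a family of close copies) and Pnliprp1 (-2.93 ± 0.29). In tumour 2 they were at 0, 1.59, 1.59 and 0 CPM against 0.216, 2.30, 2.88 and 0.935 CPM, in this order. There 3 UMIs equal 4.77 CPM in the Wif1/Gdf10 cells, so these differences rest on tumours 1 and 3. The 7 acinar markers summed to 246, 20.7 and 119 CPM in the Wif1/Gdf10 cells, 1736, 19.3 and 894 CPM in the other gated cells and 3298, 588 and 3570.1 CPM in epithelial cells of tumours 1, 2 and 3, and none of the 7 was at 0 in any class. In tumour 2 the acinar sum was thus not lower in the Wif1/Gdf10 cells. The 10 epithelial markers summed to 329, 360 and 397 CPM against 2192, 799 and 662 CPM in the other gated cells, with Epcam at 0 by the gate. The 4 genes found in mesenchymal tumour cells of these data (Pax6, Lingo2, Cst6 and Crabp2) summed to 8.08, 65.2 and 3.66 CPM in the Wif1/Gdf10 cells. In the other gated cells they summed to 24.4, 304 and 16.5 CPM. Median depth was 8703, 9085 and 5309 UMIs in the other gated cells, above the 7138.5, 6263 and 4931 of the Wif1/Gdf10 cells. Scrublet marked 1.30% of the Wif1/Gdf10 cells and 0.658% of the other gated cells as doublets. The part of these differences in the result was not tested. With at least 5 UMIs each of Dcn and Col3a1 in both classes, 383 genes passed, 219 of them among the 274, and Clps, Prss2, Pnliprp1, Tac2, Vcan, Sox9 and Mmp2 no longer did, while Cela3b could not be tested. Clps, Prss2, Vcan, Sox9 and Mmp2 also lost the call after thinning to 3000 UMIs, as did Sprr1a, Sfrp5 and Cxcl12, and Mmp2 further without tumour 2. Leaving out the cells marked by Scrublet gave 346 genes, 271 of them among the 274.

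**Figure D4:**
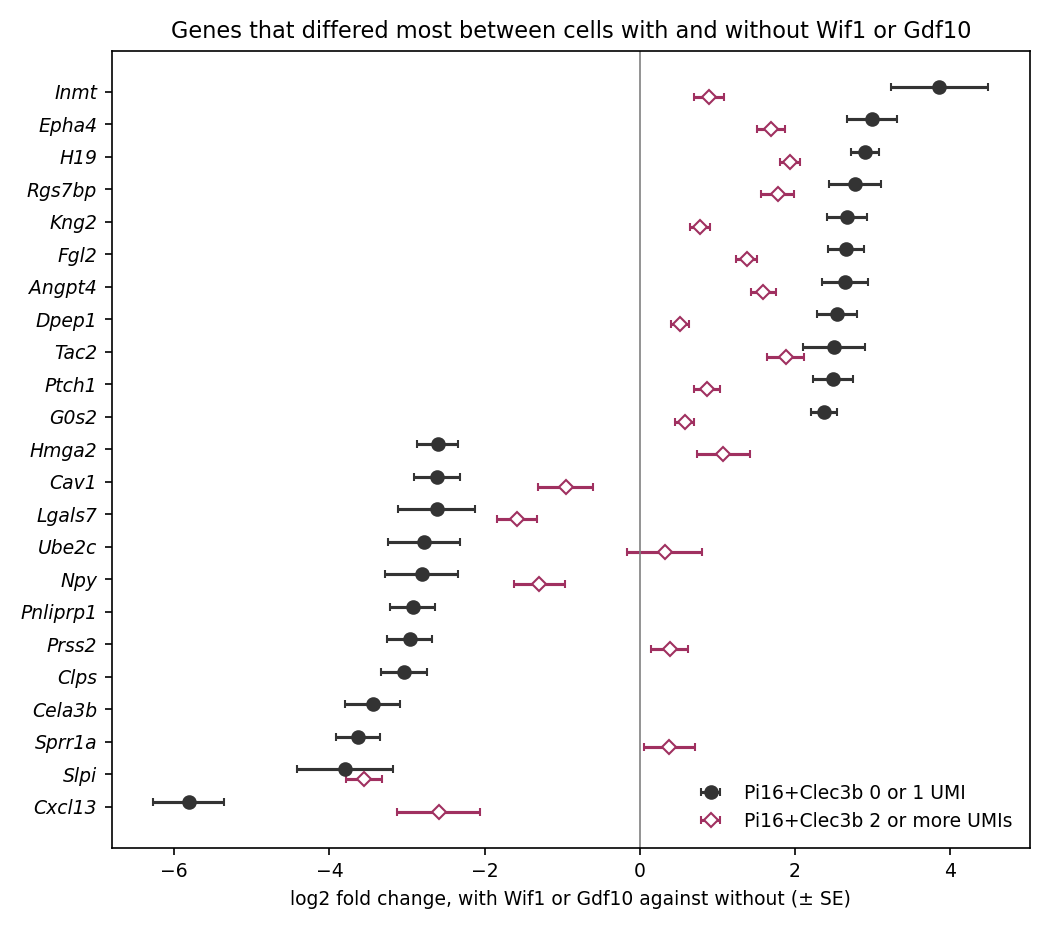
Log2 fold change ± SE (x axis) of the genes with a mean of at least 20 CPM and 1 sign in every tumour that differed most between gated cells with and without a Wif1 or Gdf10 UMI, for cells with 0 or 1 Pi16 and Clec3b UMI (filled circles) and for cells with 2 or more (open diamonds, drawn where the gene was tested there). H19 is at 2.90 and 1.94 and Slpi at -3.80 and -3.55, while Hmga2 is at -2.61 and 1.08.

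The gated cells with at least 2 Pi16 and Clec3b UMIs allowed the same comparison in cells that the rule did not use, 999 with Wif1 or Gdf10 against 650 without, from the same tumours. Of 9232 genes, 321 passed (3.48%), 130 higher (1.41%) and 191 lower (2.07%). There were 70 genes higher in both comparisons, 47.9% of the 146 and 53.8% of the 130. There were 20 genes lower in both, 15.6% of the 128 and 10.5% of the 191. All 4 imprinted genes were higher here too: H19 (1.94 ± 0.13), Zim1 (1.85 ± 0.26), Plagl1 (1.73 ± 0.16) and Peg3 (1.65 ± 0.18). H19 was at 618, 692 and 1271 CPM with Wif1 or Gdf10 and 117, 194 and 413 CPM without. Dkk2 (1.54 ± 0.13), Sfrp5 (1.92 ± 0.33), Igfbp4 (0.50 ± 0.08), Igf1 (0.62 ± 0.11), Ptch1 (0.87 ± 0.17), Epha4 (1.69 ± 0.18), Angpt4 (1.59 ± 0.17) and Ccl11 (0.65 ± 0.13) were also higher, and Slpi (-3.55 ± 0.23), Cxcl13 (-2.59 ± 0.53) and Lgals7 (-1.58 ± 0.26) lower. Sprr1a (0.38 ± 0.33), Prss2 (0.38 ± 0.24), Ube2c (0.32 ± 0.48), Lum (-0.01 ± 0.10) and Dpt (-0.31 ± 0.20) did not pass and had the opposite sign. In a fit of all 4 classes, the difference between the 2 comparisons passed for Hmga2 alone, of 10416 genes (edgeR, adjusted p = 0.00683), while 711 genes had an unadjusted p below 0.05. The smaller fold changes of most genes named here are thus not shown to differ from those in the cells with few Pi16 and Clec3b UMIs.

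Against the 650 Pi16/Clec3b cells without Wif1 or Gdf10, the Wif1/Gdf10 cells had less of the adventitial, complement and fibrillar matrix genes, and more H19, Dkk2 and Ptch1. Of 7678 genes, 225 passed (2.93%), 64 higher (0.834%) and 161 lower (2.10%). Without tumour 3 the count was 83, of which 75 were among the 225, and without tumour 2 it was 379. Among the genes named below, Plagl1, Peg3, Col11a1, Myl9, Col15a1, Pcolce2, Cfb, Eln, Nov and Cxcl5 lost the call without tumour 3, Grem1 without tumour 1 and Galr2 without tumour 2. DESeq2 called 92 genes, all of them among the 225, and the gate of at least 5 Dcn and Col3a1 UMIs gave 145. Of the genes named below, Plagl1, Peg3, Col10a1, Col11a1, Dpp4, Gng2, Galr2, Tinagl1, Cxcl5 and Nov lost the call with DESeq2. Peg3, Eln, Pcolce2, Galr2, Tinagl1, Cxcl5 and Nov lost it with that stricter gate, and Plagl1, Col15a1 and Cxcl5 after thinning to 3000 UMIs. The classes were split on Pi16 and Clec3b as well as on Wif1 and Gdf10, so a gene that follows either pair could differ. Median depths were 6144, 6233 and 4154 UMIs in the Pi16/Clec3b cells of tumours 1, 2 and 3.

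Of 15 adventitial genes tested, Pi16 and Clec3b not among them, 11 were lower (73.3%, against 2.10% of all genes), none was higher, and the median log2 fold change was -1.38. Ly6c1, a surface protein with a near copy in Ly6c2, was at 20.2, 11.1 and 13.4 CPM in the Wif1/Gdf10 cells and 272, 85.7 and 218 CPM in the Pi16/Clec3b cells (-3.78 ± 0.21, adjusted p = 4.32e-07). The dipeptidase Dpp4 (-2.71 ± 0.48), the collagen-processing Pcolce2 (-2.53 ± 0.50) and Dpt (-2.28 ± 0.16), which binds decorin, were lower too. Dpp4 met the filter on low counts only through the Pi16/Clec3b sums, so it could enter the test, and the 73.3%, only as a lower gene. Pcolce2 would not have met the filter without those sums. Of 11 complement genes, 6 were lower (54.5%, against 2.10% of all genes) and 1, Cd59a, was higher (9.09%, against 0.834%). C3, the central complement component, was at 517, 79.6 and 529.6 CPM against 2387, 442 and 1695 CPM (-2.10 ± 0.15, adjusted p = 2.03e-06), lower in each tumour, with ranges that overlapped across tumours. Cd55 (-2.11 ± 0.33), Cfb (-2.03 ± 0.31) and C4b (-1.59 ± 0.16) followed. Neither Cd55, also 1 of the 11 lower adventitial genes, nor Cfb would have met the filter on low counts without the Pi16/Clec3b sums. Of 25 fibrillar matrix genes, 9 were lower (36.0%) and none was higher, among them the microfibril genes Mfap4 (-1.56 ± 0.22) and Mfap5 (-1.38 ± 0.13), elastin Eln (-1.12 ± 0.19) and Col14a1 (-1.40 ± 0.20). The lists share genes: Col14a1, Mfap5 and Fbn1 also count as adventitial, and Cd55 as adventitial and complement. C3 and Ly6c1 count again among the inflammatory genes below.

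Of 19 inflammatory fibroblast genes, 7 were lower (36.8%, against 2.10% of all genes), among them C3, Ly6c1 and the haptoglobin gene Hp (-1.95 ± 0.20), and 1 was higher (5.26%, against 0.834%), the neutrophil chemokine Cxcl5 (1.69 ± 0.33). Large decreases were also seen in the tenascin Tnxb (-3.74 ± 0.27), Slpi (-3.64 ± 0.24), the interferon-induced Ifi27l2a (-2.93 ± 0.19), the lubricin gene Prg4 (-2.74 ± 0.24) and the matricellular genes Wisp2 (-2.40 ± 0.25) and Nov (-2.06 ± 0.51). H2-D1, a class I heavy chain, was at 129, 142 and 183 CPM against 369.8, 254 and 457 CPM (-1.27 ± 0.15). It was the only one of 8 MHC genes to pass (12.5%).

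Of 11 imprinted growth genes tested besides Igf2, 3 were higher (27.3%, against 0.834% of all genes) and none was lower. H19 was at 545, 575 and 1046 CPM against 117, 194 and 413 CPM, without overlap (1.66 ± 0.16, adjusted p = 5.06e-05). Plagl1 (1.13 ± 0.20) and Peg3 (0.82 ± 0.17) were the others. Dkk2 had the largest increase among genes with a mean of at least 20 CPM and 1 sign in every tumour, at 475, 428 and 386 CPM against 53.7, 165 and 151 CPM (1.89 ± 0.26, adjusted p = 0.00119), while Sfrp1 was lower (-0.79 ± 0.15), so that the Wnt inhibitors went in both directions. Grem1, a secreted BMP antagonist, was at 111, 36.6 and 32.3 CPM against 17.7, 23.1 and 12.1 CPM (1.80 ± 0.31). The cell cycle inhibitor Cdkn2a was at 317, 1011 and 792 CPM against 69.4, 311 and 279.6 CPM (1.73 ± 0.14, adjusted p = 1.23e-05). Ptch1 (1.44 ± 0.27), Epha4 (1.61 ± 0.20), the copper monooxygenase-like Moxd1 (1.52 ± 0.23), the G protein subunit Gng2 (1.57 ± 0.25), the galanin receptor Galr2 (1.70 ± 0.41), the matrix protein Tinagl1 (1.48 ± 0.32) and the receptor tyrosine kinase inhibitor Spry1 (1.47 ± 0.24) were higher as well. Of 18 myofibroblast genes, 4 were higher (22.2%), Col10a1 (2.15 ± 0.53), Col11a1 (1.10 ± 0.20), Myl9 (1.04 ± 0.15) and Tpm1, and 1 was lower (5.56%), Col15a1 (-0.79 ± 0.12). Apod, given without a test, was at 122, 169.7 and 183 CPM in the Pi16/Clec3b cells, above the 14.1 CPM of the Wif1/Gdf10 cells in tumour 1 and below their 660 CPM in tumour 3.

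The Wif1/Gdf10 cells were not uniform: those with Wif1 only carried more of 4 myofibroblast genes and of Actg2, Grem1 and Dkk2, and those with Gdf10 only more Mmp3, Dpt, the complement genes C3 and C4b and the metallothioneins. Several of these calls, among them C3 and the metallothioneins, were lost with DESeq2. There were 28, 51 and 155 cells with Wif1 only and 29, 22 and 88 with Gdf10 only in tumours 1, 2 and 3. Of 3959 genes, 46 passed (1.16%), 20 higher in the cells with Wif1 only (0.505%) and 26 lower (0.657%). The count was 14 without tumour 3, of which 11 were among the 46, 30 without tumour 1, and 19 with DESeq2, all of them among the 46. Median depth in tumour 3 was 5766 UMIs with Wif1 only and 3759.5 with Gdf10 only, and in the other tumours it was closer (7151.5 and 7289 UMIs in tumour 1, 6263 and 5857 in tumour 2). With each cell thinned to 3000 UMIs, 35 genes passed, 25 of them among the 46, in a fit that held 2 of the tumours.

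Mmp3, a stromelysin that degrades matrix, was at 0, 12.4 and 2.23 CPM in the cells with Wif1 only and 144, 282 and 85.8 CPM in those with Gdf10 only (-4.95 ± 0.43, adjusted p = 6.62e-06). The classes did not overlap, and in tumour 1 no Mmp3 UMI was seen with Wif1 only, where 3 UMIs would give 15 CPM. Dpt was at 25.0, 2.48 and 27.8 CPM against 292, 78.8 and 126 CPM (-2.92 ± 0.37), also without overlap. C3 was at 165, 74.4 and 164 CPM against 850.0, 118 and 1624 CPM (-2.44 ± 0.35) and C4b at 45.1, 14.9 and 111 CPM against 301, 39.4 and 579 CPM (-2.41 ± 0.27), with the smallest differences in tumour 2. Of 9 complement genes, these 2 were lower with Wif1 only (22.2%, against 0.657% of all genes) and Cd59a was higher (1.14 ± 0.24; 11.1%, against 0.505%). The metallothioneins Mt1 (-1.75 ± 0.31) and Mt2 (-2.14 ± 0.33), similar genes that bind zinc and copper, were lower with Wif1 only. So were the proteoglycan Aspn (-2.44 ± 0.45), the microfibril gene Mfap4 (-2.22 ± 0.28), the adhesion molecule Vcam1 (-2.05 ± 0.45), the matricellular Smoc2 (-1.95 ± 0.34), the serine protease Prss23 (-2.07 ± 0.34) and the lipid carrier Apoe (-1.82 ± 0.31). Mmp3, Dpt and Aspn met the filter on low counts only through the cells with Gdf10 only, so they could enter the test only with this direction. C4b, Mfap4, Vcam1, Smoc2 and Prss23 would not have met the filter without the cells with Gdf10 only, where they were high. Peg3 was the only one of 9 imprinted genes besides Igf2 to pass, and it was lower with Wif1 only (-1.43 ± 0.29), while H19 (0.73 ± 0.22, adjusted p = 0.183) did not pass. C3, Mt1, Peg3 and Cd59a lost the call both with DESeq2 and without tumour 3, and Mt2 with DESeq2. Aspn, Mfap4, Smoc2, Prss23 and Apoe lost it without tumour 3. With at least 5 Dcn and Col3a1 UMIs, Aspn, Vcam1, Smoc2 and Peg3 did not pass. Vcam1 and Cd59a also lost the call without tumour 1, without tumour 2 and after thinning. Aspn lost it without tumour 2 and after thinning, and Prss23 after thinning.

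Of 17 myofibroblast genes, 4 were higher with Wif1 only (23.5%, against 0.505% of all genes) and none was lower: Col11a1 (1.99 ± 0.34), Myl9 (1.63 ± 0.24), Igfbp3 (1.09 ± 0.25) and Tpm1 (0.95 ± 0.21). Igfbp3 and Tpm1 lost the call without any 1 of the tumours, with DESeq2, with at least 5 Dcn and Col3a1 UMIs and after thinning, and Col11a1 with DESeq2 and after thinning, so that Myl9 was the only one of the 4 to pass in each of these. Myl9, the regulatory light chain of smooth muscle myosin, was at 631, 241 and 190.3 CPM against 144, 98.5 and 67.0 CPM. Actg2, the enteric smooth muscle actin, was at 1017, 49.6 and 118 CPM against 52.3, 19.7 and 26.8 CPM (3.10 ± 0.40), with tumour 1 far above the others. Grem1 was at 215, 37.2 and 42.3 CPM against 17.4, 19.7 and 10.7 CPM (2.43 ± 0.48), likewise highest in tumour 1. Dkk2 was at 867, 459 and 489.8 CPM against 87.2, 394 and 142 CPM (1.62 ± 0.36, adjusted p = 0.0309) and differed least in tumour 2. Without tumour 1, none of Actg2, Grem1 and Dkk2 passed, and without tumour 3 Dkk2 did not pass either. Cyp26a1, which degrades retinoic acid, was at 115, 193 and 578 CPM against 39.2, 105 and 107 CPM (1.74 ± 0.29). The tetraspanin Cd53 (3.35 ± 0.52), Igfbp2 (2.39 ± 0.40), the water channel Aqp1 (2.22 ± 0.44), the creatine synthesis enzyme Gatm (2.14 ± 0.43) and the cyclin Ccnd1 (1.84 ± 0.44) were higher as well. Of the genes named here, Cd53, Grem1, Igfbp2, Gatm and Ccnd1 met the filter on low counts only through the cells with Wif1 only. They could enter the test only as higher genes. Aqp1, Actg2 and Col11a1 would not have met the filter without the cells with Wif1 only. With DESeq2, Igfbp2, Aqp1, Gatm and Ccnd1 lost the call, as did Grem1 and Dkk2. Cyp26a1 lost it without tumour 3, and Cd53 and Gatm after thinning. Aqp1, Gatm and Ccnd1 lost it without tumour 1, and Gatm and Ccnd1 also without tumour 2. Cd53 is best known from blood cells, whose gene Ptprc had 1 UMI in all Wif1/Gdf10 cells. Apod, as a description, was at 25.0, 201 and 972 CPM with Wif1 only and 8.72, 19.7 and 113 CPM with Gdf10 only, and Igf2 at 40.1, 149 and 328 CPM and 26.2, 78.8 and 174 CPM.

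**Figure D5:**
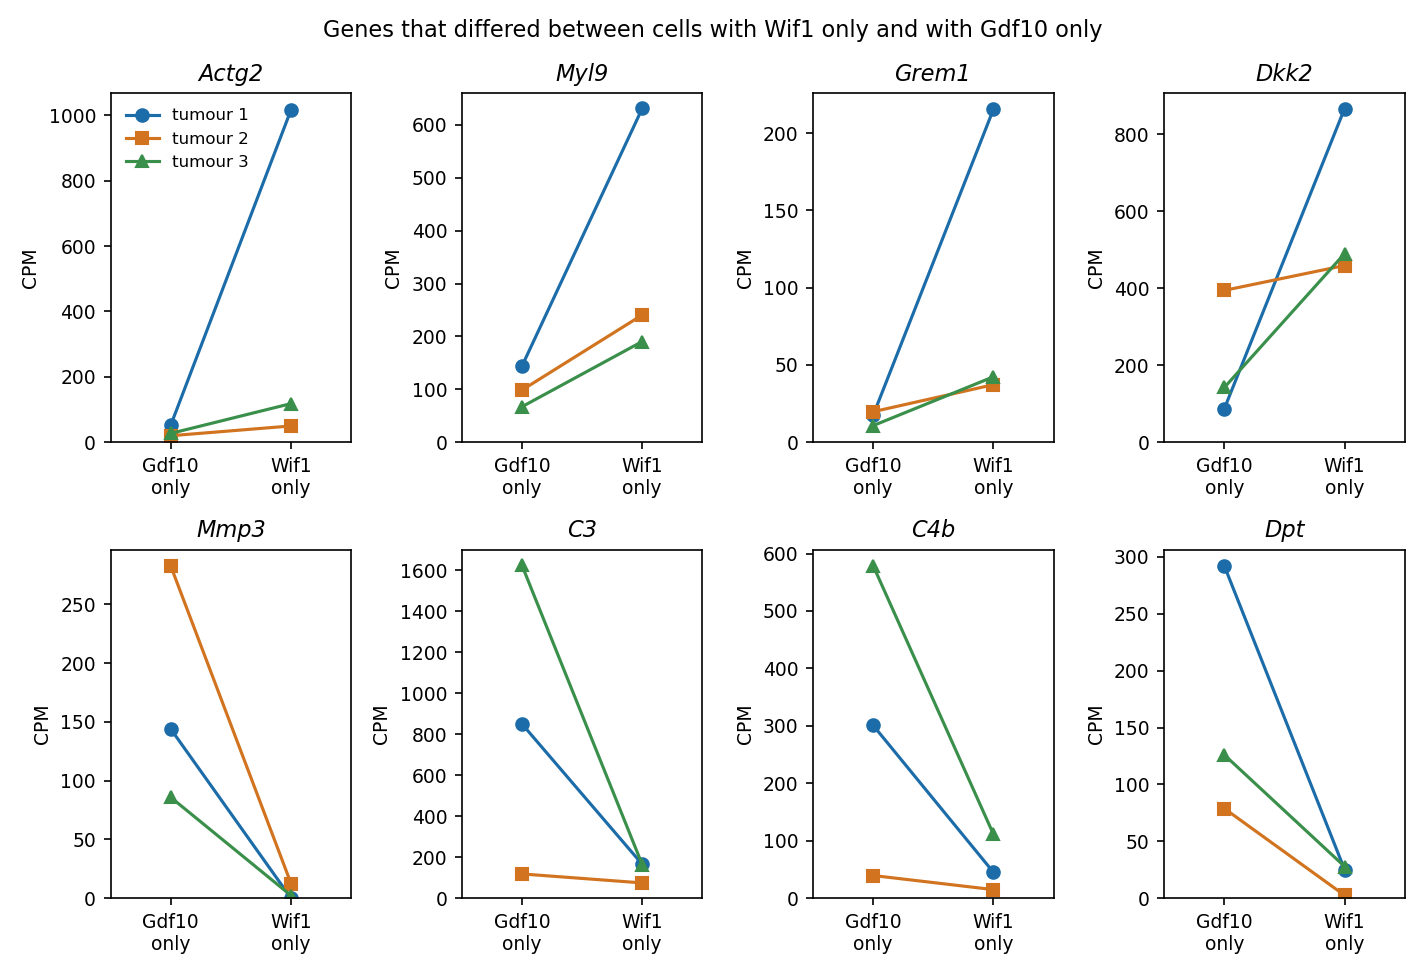
Levels in CPM (y axes from 0) of 8 genes in the summed cells with Gdf10 only (left of each panel) and with Wif1 only (right), with 1 line per tumour. Actg2, Myl9, Grem1 and Dkk2 were higher and Mmp3, C3, C4b and Dpt lower with Wif1 only in each tumour, with Actg2 in tumour 1 reaching 1017 CPM.

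The authors' deposited table of 19 clusters, which gives values over the pooled tumours, placed the naming genes close together. In the authors' deposited table, cluster 2 had the highest log2 fold change of Wif1 (5.18), Apod (5.68), Igf2 (3.10), H19 (3.78), Plagl1 (4.26), Peg3 (2.24) and Ptch1 (3.01). Gdf10 was highest in cluster 11 of the authors' deposited table (4.21) and next in cluster 2 (4.04). Pi16 was likewise highest in cluster 11 (4.43) and next in cluster 2 (3.45) of the authors' deposited table, and Mmp3 was highest in cluster 11 (4.75). The table does not say which cells belonged to these clusters, so the clusters were not matched to the Wif1/Gdf10 cells.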

How the data were processed

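The authors deposited 1 matrix of UMI counts, whole numbers that were not normalized, for cells of 3 tumours; tumours were told apart by barcode suffix, as the labels describe. The genotype of the strain is not reported here in full. Cell Ranger 2.1.1 and Seurat 3.0 appear in the submitters' processing notes; the sources used here do not give their roles or the genome build. The authors also deposited a table that holds, per the file headers, a log2 fold change, a mean UMI count (a signal) and an adjusted p-value for each gene in each cluster. These values were copied, not tested.

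The cells and gene lists were chosen with earlier results of these data known. Cells with at least 500 genes and at most 20% mitochondrial UMIs were gated on raw counts, summed per tumour and class (at least 20 cells), and tested with edgeR 4.0.16 in R 4.3.3 (TMM normalization, filterByExpr, quasi-likelihood test, tumour as block, Benjamini-Hochberg at 0.05 over all genes tested). Each tumour supplied both sums of its pair, which is why it was a block. The 9 genes of the gate stayed in the library sizes and out of the tests. The filter on low counts keeps a gene that is high enough in the sums of 1 class. Some genes were thus tested only through the class where they were high, such as Dpp4 and Col10a1 against Pi16/Clec3b cells. In that comparison, Tnxb, Prg4, Wisp2 and Nov would not have met the filter without the Pi16/Clec3b sums. Galr2, Cxcl5 and Tinagl1 would not have met it without the Wif1/Gdf10 sums. Standard errors were derived from the fold change and the F statistic. Genes named are the 12 largest changes in each direction past the threshold with 1 sign in every tumour and a mean of at least 20 CPM, and up to 4 called genes of each of 21 lists; genes given as not passing come from the same lists. The comparison in cells with at least 2 Pi16 and Clec3b UMIs was added after the data were seen. Scrublet (scanpy 1.11.5) was run per tumour, marked 1.17%, 1.53% and 1.88% of cells, and was applied as an alternative only. In counts simulated for the comparison with other gated cells, the test recovered 42.3% of 2-fold and 89.9% of 4-fold changes. DESeq2 1.42.0, other gates, thinning to 3000 UMIs and leaving out each tumour were alternatives.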

Additional observations from a re-analysis of the deposited data

Results flagged for a closer look

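Hmga2 behaved differently in the cells with few and with many Pi16 and Clec3b UMIs, by a test of that difference. With Wif1 or Gdf10 it was lower among cells with at most 1 Pi16 and Clec3b UMI, at 6.06, 107 and 5.49 CPM against 89.2, 529 and 26.4 CPM in tumours 1, 2 and 3 (log2 fold change -2.61 ± 0.26, SE). Among cells with at least 2, it was at 7.71, 113 and 3.83 CPM against 5.57, 41.2 and 1.61 CPM (1.08 ± 0.34, adjusted p = 0.113 in edgeR, not past the threshold). The difference between the log2 fold changes was -3.69 ± 0.41 (SE; edgeR, adjusted p = 0.00683 over 10416 genes). The other gated cells had the highest level of these 4 classes in each tumour. Compared with the Wif1/Gdf10 cells they also had the higher sums of epithelial markers and of mesenchymal tumour markers in each tumour. The mesenchymal tumour markers summed to 24.4, 304 and 16.5 CPM against 8.08, 65.2 and 3.66 CPM in the Wif1/Gdf10 cells. The part of both marker sums in this result was not tested.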

How the results depend on the processing

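The numbers of genes past the threshold depended most on the block and on single tumours. With no replicate block, edgeR called 0 genes in all 3 comparisons, with 589, 256 and 114 genes at an unadjusted p below 0.05 in the comparisons with other gated cells, with Pi16/Clec3b cells and within the Wif1/Gdf10 cells. Leaving out 1 tumour gave 13 to 672, 83 to 379 and 14 to 53 genes against 274, 225 and 46. With no filter on low counts 899, 416 and 126 genes passed. DESeq2 called 92 genes against Pi16/Clec3b cells and 19 within the Wif1/Gdf10 cells, and with at least 5 Dcn and Col3a1 UMIs 145 passed against Pi16/Clec3b cells. The cause was not tested. The mean Gdf10 level was 144 CPM, and 230.0 CPM after thinning. Cfd, lower against other gated cells, had a log2 fold change of 1.87 with at least 5 Dcn and Col3a1 UMIs and 0.034 after thinning. In cells with at least 2 Pi16 and Clec3b UMIs, an alternative chosen after seeing the data, Sprr1a (0.38), Prss2 (0.38), Ube2c (0.32), Hmga2 (1.08), Dpt (-0.31) and Lum (-0.010) reversed. The split of the Wif1/Gdf10 cells at 2 UMIs could not be fitted, with too few cells in 2 of the tumours, and its thinned fit used 2 tumours. With at least 2 UMIs of the pair, which selects on Wif1 itself, mean Wif1 was 592 CPM against 374 CPM. The mean share of Wif1/Gdf10 cells moved by less than 1 SD between tumours, as did the naming genes otherwise. That SD is wide (16.9% ± 15.5 for the share, 282 ± 337 CPM for Apod), so few shifts could exceed it. Apod was 402 CPM after thinning. With at least 2 UMIs of the pair, the shares were 6.19%, 3.22% and 26.2% in tumours 1, 2 and 3. With 66 and 81 Wif1/Gdf10 cells in tumours 1 and 2, 3 UMIs equal 6.06 and 4.77 CPM, which limits genes of low level.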

Other observations

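Dio3, Dio2, Cyp26a1 and Hsd11b1, enzymes that act on thyroid hormone, retinoic acid or glucocorticoid, were higher with Wif1 or Gdf10 in cells with few and with many Pi16 and Clec3b UMIs. These and the genes below were chosen after their values were seen and stand for no group; Crabp2, which binds retinoic acid, was lower in cells with few (-2.01 ± 0.26). Dio3, which inactivates thyroid hormone and is itself imprinted, was at 54.5, 35.0 and 43.9 CPM against 14.3, 6.54 and 16.5 CPM in tumours 1, 2 and 3 among cells with few Pi16 and Clec3b UMIs (log2 fold change 1.83 ± 0.25, SE; 0.67 ± 0.17 among cells with many). Dio2, which activates the hormone, was at 8.08, 7.96 and 43.9 CPM against 1.30, 1.29 and 2.24 CPM (3.34 ± 0.48 and 1.51 ± 0.27). Among cells with few, Dio2 met the filter on low counts only through the cells with Wif1 or Gdf10. It could thus enter that test only as a higher gene. Cyp26a1 was at 212, 159 and 429 CPM against 51.4, 23.6 and 149 CPM (2.03 ± 0.22 and 1.25 ± 0.16). Hsd11b1, which regenerates active glucocorticoid, was at 711, 1128 and 1273 CPM against 141, 108 and 495 CPM (2.31 ± 0.32 and 0.86 ± 0.10). For these 4 genes the classes with few Pi16 and Clec3b UMIs did not overlap across tumours.

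The transcription factor Hand2, which acts in limb, heart and sympathetic development, was at 145, 70.0 and 235 CPM against 32.8, 10.7 and 82.4 CPM (2.02 ± 0.23 and 1.08 ± 0.13). Slc6a2, the noradrenaline transporter of sympathetic neurons, was at 24.2, 9.55 and 54.9 CPM against 2.76, 0.719 and 7.57 CPM (3.05 ± 0.32 and 1.85 ± 0.22). Among cells with few Pi16 and Clec3b UMIs, Slc6a2 would not have met the filter on low counts without the cells with Wif1 or Gdf10, where it was high. Gas6, a ligand of the TAM receptor kinases, was at 679, 415 and 2348 CPM against 211, 56.9 and 801 CPM (1.97 ± 0.24 and 1.25 ± 0.09), and tumour 3 had the highest level in both classes. Each of these genes passed an adjusted p of 0.05 in both comparisons (edgeR).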
